A study of Mus musculus with 6 samples.

Results

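Transcripts of 7 enzymes of cholesterol synthesis (Hmgcs1, Idi1, Fdps, Sqle, Lss, Cyp51 and Dhcr7) were measured in sorted cells of mouse fetal liver. The genes were taken by symbol from a named list, and all 7 were found among the 54532 genes of the deposited table. All of them act in synthesis, and none is a lipoprotein uptake gene, so they are called cholesterol synthesis genes below. The samples were 3 libraries from embryonic day 18 (E18) and 3 from embryonic day 16 (E16), lettered A, B and C in each group. Every library came from the liver of CD-1 mice of the genotype Sm22-Cre/ROSA26RYFP, in which Cre switches on a fluorescent reporter, and held the eYFP-positive cells taken by flow sorting. Sm22 is another name of the Tagln gene, whose promoter drives expression in smooth muscle and kindred mesenchymal cells. The mark stays in a cell's descendants, so it does not show that a cell still used the promoter when it was sorted. Whether libraries of the same age stem from different litters or pools is not in the labels. The p-values therefore set the difference between the ages against the spread among these libraries only, which may be technical.

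Cells build cholesterol from acetyl-CoA through mevalonate, isoprenoid diphosphates, squalene and lanosterol. The enzymes are switched on together when membrane cholesterol is low, by the transcription factor SREBP-2, which binds sterol regulatory elements in their promoters beside the factors NF-Y and Sp1. The fetus makes much of its own sterol, and dividing cells need it for new membranes.

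Promoter sequence is shown for 3 of the genes because they represent the early pathway (Hmgcs1), the gene that ran against the others (Idi1) and the gene with the smallest adjusted p (Lss). Windows run from 250 bases before to 50 after the gene start in RefSeq (GRCm38.p6), and all 3 are on the plus strand, written 5′ to 3′. RefSeq windows were matched for 5 of the 7 genes. Capitals mark matches on either strand to a sterol regulatory element core (TCACNCCAC), the NF-Y box (CCAAT) and the Sp1 box (GGGCGG), which do not overlap one another in these windows.
Hmgcs1, chr13:119690101-119690400: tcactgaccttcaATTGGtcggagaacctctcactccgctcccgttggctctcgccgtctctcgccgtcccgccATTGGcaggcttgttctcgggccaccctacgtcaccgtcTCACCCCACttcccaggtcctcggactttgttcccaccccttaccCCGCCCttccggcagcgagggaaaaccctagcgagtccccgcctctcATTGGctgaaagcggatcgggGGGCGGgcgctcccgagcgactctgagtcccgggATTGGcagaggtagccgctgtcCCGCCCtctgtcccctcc
Idi1, chr13:8885356-8885655: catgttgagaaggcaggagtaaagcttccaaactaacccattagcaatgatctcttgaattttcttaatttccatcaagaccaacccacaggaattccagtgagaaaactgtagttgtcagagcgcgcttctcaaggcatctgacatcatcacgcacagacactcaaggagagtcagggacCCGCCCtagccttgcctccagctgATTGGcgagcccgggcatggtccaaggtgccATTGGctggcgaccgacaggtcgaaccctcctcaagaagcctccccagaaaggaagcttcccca
Lss, chr10:76531355-76531654: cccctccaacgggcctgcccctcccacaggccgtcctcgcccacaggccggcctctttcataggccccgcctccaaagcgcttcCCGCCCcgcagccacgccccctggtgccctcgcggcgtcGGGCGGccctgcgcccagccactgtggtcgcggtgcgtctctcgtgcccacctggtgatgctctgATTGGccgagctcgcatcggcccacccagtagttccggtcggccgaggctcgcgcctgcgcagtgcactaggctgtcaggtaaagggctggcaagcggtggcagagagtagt

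Hmgcs1 held 1 TCACNCCAC match, written TCACCCCAC and starting 137 bases before the gene start, with 4 CCAAT and 3 GGGCGG matches. Idi1 held 2 CCAAT matches and 1 GGGCGG match, and Lss held 1 CCAAT match and 2 GGGCGG matches. Neither held a TCACNCCAC match, nor did the windows of Cyp51 and Dhcr7. Other forms of the sterol regulatory element were not searched. Of 32851 promoter windows of the same length, 1.24% held TCACNCCAC, 37.4% held CCAAT and 35.7% held GGGCGG. These matches describe letters in a window and are not binding data.

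The libraries differed in depth and in their levels of marker transcripts of other cell types. Recovered totals were 14587544 to 18281942 reads in E18 libraries and 21130197 to 22626885 in E16 libraries, so a transcript of 1 kb at 1 TPM (a transcript level scaled for length and for the library total) rested on 4.41 to 5.53 reads in E18 libraries and 6.48 to 6.83 in E16 libraries. Hepatocyte markers summed to 384 to 995 TPM in E18 libraries and 2134 to 9016 TPM in E16 libraries, with 5 of 12 lower at E18 past the test and none listed at 0. Erythroid markers summed to 11616 to 19655 TPM in E18 libraries and 6038 to 7872 TPM in E16 libraries, with 2 of 12 higher. Of these sums, Hba-a1 alone was 5200 to 9848 TPM in E18 libraries and 2071 to 3135 TPM in E16 libraries. The fold change was positive for 11 markers, among them Klf1 and Gata1, whose groups overlapped. It was negative for 1, Epor (log2 fold change −0.39), which was lower at E18 without overlap but not called. Smooth muscle markers summed to 181 to 402 TPM in E18 libraries and 19.2 to 52.5 TPM in E16 libraries, with 5 of 7 higher. Tagln itself was at 2.86 to 3.37 TPM in E18 libraries and 0.606 to 1.40 TPM in E16 libraries. In Tagln 67.9% of the exon length lies under the opposite-strand genes Gm48529 and Pcsk7, and the strand setting is not given, so its level is uncertain. Stellate and fibroblast markers summed to 1634 to 4411 TPM in E18 libraries and 311 to 594 TPM in E16 libraries, with 8 of 10 higher. Endothelial, megakaryocyte, cholangiocyte and mesothelial marker sums were each at most 241.8 TPM in every library. Even so, 2 of 6 mesothelial markers (Msln and Upk3b) and 1 of 2 tested cholangiocyte markers (Krt19) were called higher at E18. The mesothelial markers did not move as 1, with 3 fold changes positive and 3 negative (Krt8, Krt18 and Podxl). Among the negative ones, Krt18 was lower at E18 without overlap, but not called. Of the leukocyte and macrophage markers, which summed to 41.0 to 113 TPM in E18 libraries and 41.9 to 57.0 TPM in E16 libraries, Adgre1, Clec4f and Cd5l were listed at 0 in all 6 libraries. S100a9, at 1.68 to 7.81 TPM in E18 libraries and listed at 0 in E16 libraries, was called higher (limma adjusted p = 0.0492). It passed the filter on low values only through the E18 libraries, and its E16 values had no spread, so the call carries little weight. Which cells these marker transcripts came from was not tested, and fewer cells of a type and less RNA per cell cannot be told apart.

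E18 was compared with E16 to ask whether cholesterol synthesis transcripts differ between these stages of late gestation. All 7 genes passed the filter on low values. None of the 7 was called (limma on log2(TPM + 1), adjusted p under 0.05), where 3.47% of the 17824 tested genes were called, 3.08% as higher and 0.387% as lower at E18. Adjusted p-values of the 7 ran from 0.132 for Lss to 0.699 for Fdps. At an unadjusted p under 0.05 there were 2 of the 7, Lss and Dhcr7, against 20.9% of all tested genes, and limma's voom on recovered reads called 0 of the 7 with 3 at an unadjusted p under 0.05. Over all genes voom called 8.24% of 17818, and 21.4% had an unadjusted p under 0.05. The fold change was negative for 6 of the 7 and positive for Idi1. Its median was −0.38 on the log2 scale over the 7, against 0.07 over all tested genes. In 3 genes (Fdps, Lss and Dhcr7) the E18 values all lay below the E16 values, as did those of 8.05% of all tested genes, while no member had all E18 values above, as 18.4% of tested genes had. No member changed sign under any alternative setting.

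**Figure D1:**
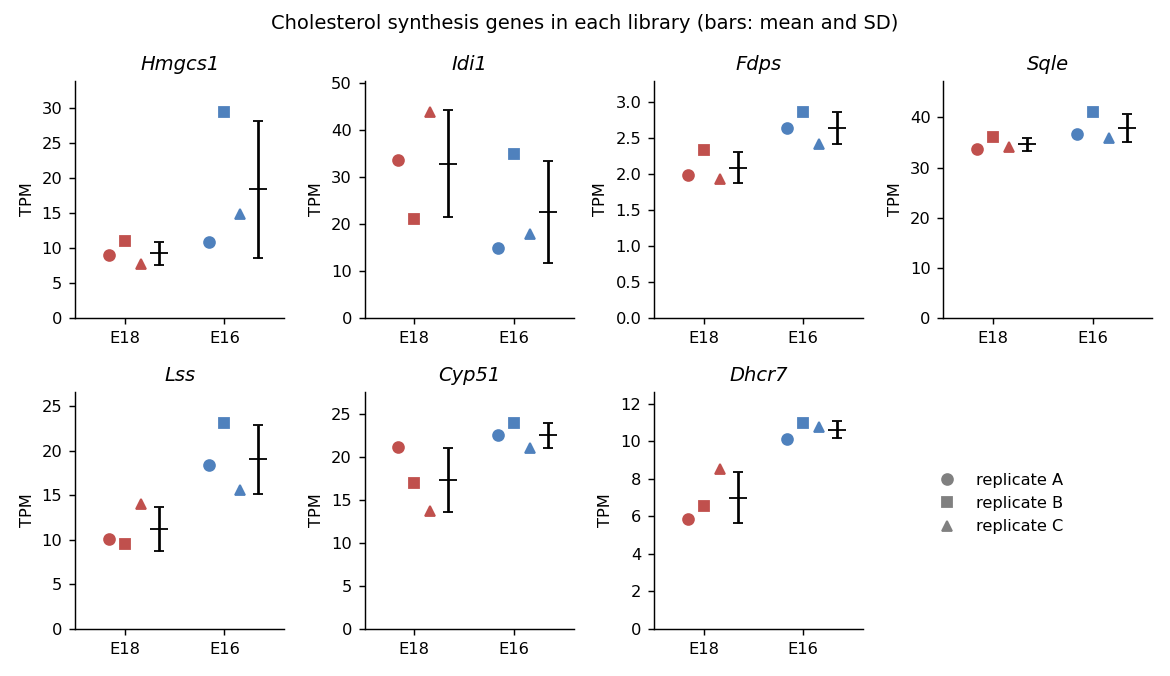
TPM of each cholesterol synthesis gene (vertical axes, each from 0) in the 3 E18 libraries (red) and the 3 E16 libraries (blue), with marker shape giving the replicate letter and bars the mean and SD. Lss, Dhcr7 and Fdps separate with E18 below E16, Idi1 has the higher E18 mean, and Hmgcs1 and Idi1 are each spread widely at E16 through the high value of replicate B.

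The early enzymes had fold changes of both signs, and none passed the test. Hmgcs1 encodes the cytosolic synthase that makes hydroxymethylglutaryl-CoA, the precursor of mevalonate (chromosome 13, 119690379 to 119708260, plus strand, mm10). It was at 8.98, 11.05 and 7.72 TPM in E18 libraries A, B and C, against 10.8, 29.5 and 14.9 TPM in E16 libraries A, B and C. E16 replicate B was the highest by a wide margin, and the groups overlapped because E18 replicate B lay above E16 replicate A. The mean was 9.25 ± 1.68 TPM at E18 and 18.4 ± 9.79 TPM at E16 (SD, n = 3 each). The log2 fold change of −0.82 ± 0.36 (SE) had a 95% interval of −1.66 to 0.03 and a limma adjusted p of 0.255. Without E16 replicate B it was −0.43. These values rested on 182 to 232 reads per library at E18 and 340 to 899 at E16, and 12.1% of the exon length lies under the opposite-strand gene Gm48342.

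Idi1, the isomerase that interconverts the 5-carbon isoprenoid units (chromosome 13, 8885501 to 8892451, plus strand), was the only member with a positive fold change. It was at 33.7, 21.1 and 43.8 TPM in E18 libraries A, B and C and at 15.0, 34.9 and 17.8 TPM in E16 libraries A, B and C. The B libraries stood apart from their groups in opposite directions, lowest at E18 and highest at E16, and the groups overlapped. Means were 32.9 ± 11.4 TPM at E18 and 22.6 ± 10.8 TPM at E16 (SD, n = 3 each), and the log2 fold change was 0.56 ± 0.37 (SE; 95% interval −0.31 to 1.43; limma adjusted p = 0.464). Single libraries decide its size, since the estimate was 0.91 when E16 replicate B was left out, 0.84 when E18 replicate B was, 0.32 when E16 replicate A was and 0.33 when E18 replicate C was. Of the 50-base stretches of its annotated transcripts, 17.7% also occur in 4 genes elsewhere in the genome, most of them in Gm13502. How reads that match several genes were counted is not given in the sources used here, and the level of Idi1 is uncertain to that extent.

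Fdps joins isoprenoid units into farnesyl diphosphate, from which squalene and the non-sterol branch both start (chromosome 3, 89093588 to 89101959, minus strand). It had the lowest level of the 7, at 1.99, 2.34 and 1.94 TPM in E18 libraries A, B and C and 2.645, 2.86 and 2.42 TPM in E16 libraries A, B and C. The E18 values were all below the E16 values by a small margin. Means were 2.09 ± 0.219 TPM at E18 and 2.64 ± 0.220 TPM at E16 (SD, n = 3 each), and the log2 fold change was −0.24 ± 0.28 (SE; 95% interval −0.89 to 0.41; limma adjusted p = 0.699). The estimate depended on the scale, at −0.63 with quantile normalization, −0.37 with voom and −0.11 with a pseudocount of 5. Only 37 to 45 reads per library at E18 and 66 to 80 at E16 stood behind these values. The exact Poisson 95% intervals of single libraries, which cover counting error only, reached up to 3.13 TPM at E18 and down to 1.87 TPM at E16, so the intervals of some libraries from the 2 groups overlapped. In Fdps 26.7% of the exon length lies under the same-strand gene Gm43738, and 15.5% of its 50-base stretches occur in 7 genes elsewhere, so its level is uncertain as well.

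The enzymes from squalene onwards each had a lower mean at E18, and none passed the test. Sqle encodes squalene epoxidase, which adds the first oxygen and is a control point of the pathway (chromosome 15, 59315077 to 59331192, plus strand). It was at 33.7, 36.1 and 34.1 TPM in E18 libraries A, B and C and 36.6, 41.1 and 35.9 TPM in E16 libraries A, B and C. Relative to its mean, Sqle varied least of the members at E18, and the groups overlapped only because E18 replicate B lay just above E16 replicate C. Means were 34.6 ± 1.32 TPM at E18 and 37.9 ± 2.80 TPM at E16 (SD, n = 3 each). The log2 fold change of −0.12 ± 0.13 (SE) had the narrowest interval of the 7, −0.42 to 0.17 (limma adjusted p = 0.657), and was −0.07 without E16 replicate B, −0.19 when TPM was rescaled without Gm26917, mitochondrial and small RNA genes, and −0.23 with median-of-ratios scaling. This interval bounds the change of Sqle more closely than that of any other member. The gene shared 0.0358% of its 50-base stretches with another gene.

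Lss, lanosterol synthase, closes the squalene chain into the ring system (chromosome 10, 76531588 to 76557138, plus strand). It was at 10.15, 9.53 and 14.0 TPM in E18 libraries A, B and C, against 18.4, 23.2 and 15.6 TPM in E16 libraries A, B and C. The groups did not overlap, with E18 replicate C and E16 replicate C closest to each other. Lss averaged 11.2 ± 2.45 TPM at E18 and 19.05 ± 3.84 TPM at E16 (SD, n = 3 each). Its log2 fold change of −0.71 ± 0.23 (SE) had a 95% interval of −1.25 to −0.17, and the limma adjusted p of 0.132 was the smallest of the 7. Between 470 and 837 reads per library at E18 and 1087 and 1660 at E16 were recovered for Lss.

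Cyp51 removes a methyl group from lanosterol (chromosome 5, 4081145 to 4104746, minus strand). Its values were 21.2, 17.05 and 13.8 TPM in E18 libraries A, B and C and 22.6, 24.0 and 21.1 TPM in E16 libraries A, B and C. The E16 libraries lay close together, and E18 replicate A just reached their range. Means were 17.3 ± 3.72 TPM at E18 and 22.6 ± 1.49 TPM at E16 (SD, n = 3 each), and the log2 fold change was −0.38 ± 0.19 (SE; 95% interval −0.83 to 0.07; limma adjusted p = 0.325), or −0.23 without E18 replicate C. With array weights, which count deviating libraries less, it was −0.12.

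Dhcr7 reduces a double bond of dehydrocholesterol, the last step of a route to cholesterol, and in people its loss causes Smith-Lemli-Opitz syndrome (chromosome 7, 143823145 to 143848410, plus strand). It was at 5.88, 6.58 and 8.525 TPM in E18 libraries A, B and C and 10.1, 11 and 10.75 TPM in E16 libraries A, B and C. The groups did not overlap, and the E16 values spanned less than the E18 values. Dhcr7 averaged 6.996 ± 1.37 TPM at E18 and 10.6 ± 0.453 TPM at E16 (SD, n = 3 each). Its log2 fold change was −0.55 ± 0.22 (SE; 95% interval −1.08 to −0.03; limma adjusted p = 0.218). Array weights brought 3 of the 7 past the threshold. They were Dhcr7 at −0.70 (limma adjusted p = 0.0203), Lss at −0.62 (limma adjusted p = 0.0317) and Idi1 at 0.79 (limma adjusted p = 0.0402), in a fit that called 4316 genes in all. Over the 18 alternatives the adjusted p ran from 0.0203 to 0.483 for Dhcr7, from 0.0317 to 0.326 for Lss and from 0.0402 to 0.709 for Idi1.

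**Figure D2:**
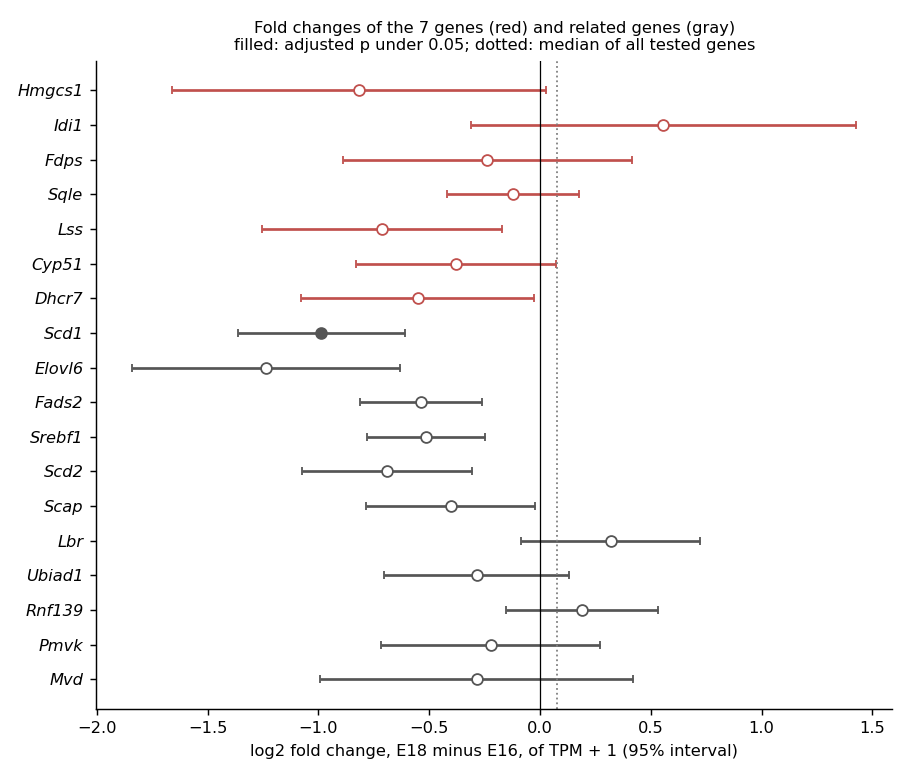
Log2 fold changes, E18 minus E16, of TPM + 1 with 95% intervals (horizontal axis) for the 7 cholesterol synthesis genes (red) and up to 4 genes of smallest p in each of 3 related lists (gray). A filled point marks an adjusted p under 0.05, which only Scd1 reached, and 6 of the 7 red points lie left of 0.

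In level, Sqle ranked first in both groups and Fdps last. On the TPM scale at E18 the order of means was Sqle, Idi1, Cyp51, Lss, Hmgcs1, Dhcr7 and Fdps, and each gene's range overlapped that of its neighbour except Dhcr7 and Fdps. At E16 the order was Sqle, then Cyp51 and Idi1 at nearly the same mean, then Lss, Hmgcs1, Dhcr7 and Fdps. There Sqle stood clear of Cyp51 and Dhcr7 of Fdps, and the other neighbours overlapped. Among tested genes, 79.7% had a lower mean level than Sqle, 74.2% than Idi1, 66.5% than Cyp51, 60.1% than Lss, 57.9% than Hmgcs1, 47.0% than Dhcr7 and 16.9% than Fdps.

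The genes also differed in how much they varied within a group. Hmgcs1 had a coefficient of variation of 18.2% at E18 and 53.2% at E16, and Idi1 of 34.7% at E18 and 47.7% at E16. Sqle had 3.82% at E18 and 7.41% at E16. Cyp51 ran the other way from Hmgcs1, at 21.5% at E18 and 6.62% at E16, as did Dhcr7, at 19.6% at E18 and 4.27% at E16. With 3 libraries in a group these values are rough.

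The summed level of the 7 genes was 115.5, 103.8 and 123.9 TPM in E18 libraries A, B and C and 116.2, 166.5 and 118.4 TPM in E16 libraries A, B and C. E16 replicate B stood alone, and the other 5 libraries lay between 103.8 and 123.9 TPM. The sum averaged 114.4 ± 10.1 TPM at E18 and 133.7 ± 28.4 TPM at E16 (SD, n = 3 each). The log2 ratio of the means was −0.23 with all libraries and −0.04 without E16 replicate B. Splitting the sum at squalene, a split made after the values were seen and not tested, gave different pictures. Hmgcs1, Idi1 and Fdps together were at 44.7, 34.5 and 53.5 TPM in E18 libraries A, B and C and 28.5, 67.2 and 35.1 TPM in E16 libraries A, B and C, with overlapping groups. Sqle, Lss, Cyp51 and Dhcr7 together were at 70.9, 69.3 and 70.4 TPM in E18 libraries A, B and C and 87.7, 99.3 and 83.3 TPM in E16 libraries A, B and C. The later enzymes thus summed to 70.2 ± 0.820 TPM at E18 and 90.1 ± 8.27 TPM at E16 (SD, n = 3 each), without overlap.

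As a share of the 7-gene sum, which does not depend on the library total, Lss took 8.78%, 9.19% and 11.3% in E18 libraries A, B and C and 15.8%, 13.9% and 13.2% in E16 libraries A, B and C. Lss was the only member whose shares did not overlap between the groups. Its share averaged 9.77% ± 1.37 at E18 and 14.3% ± 1.39 at E16 (SD, n = 3 each). Idi1 took 28.3% ± 7.56 at E18 and 16.3% ± 4.17 at E16, with the share of 20.3% in E18 replicate B below the 20.95% in E16 replicate B. Hmgcs1 took 8.22% ± 2.24 at E18 and 13.2% ± 4.22 at E16, and Dhcr7 6.10% ± 0.918 at E18 and 8.13% ± 1.33 at E16. Sqle took 30.5% ± 3.84 at E18 and 28.8% ± 3.66 at E16, the largest mean share in both groups. When each library was left out in turn, the direction of the share turned for Sqle and Cyp51 and for no other member. For Sqle the difference of 1.65 percentage points became −0.52 without E18 replicate B and −0.43 without E16 replicate B, and for Cyp51 that of −1.93 became 0.16 without E18 replicate C.

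**Figure D3:**
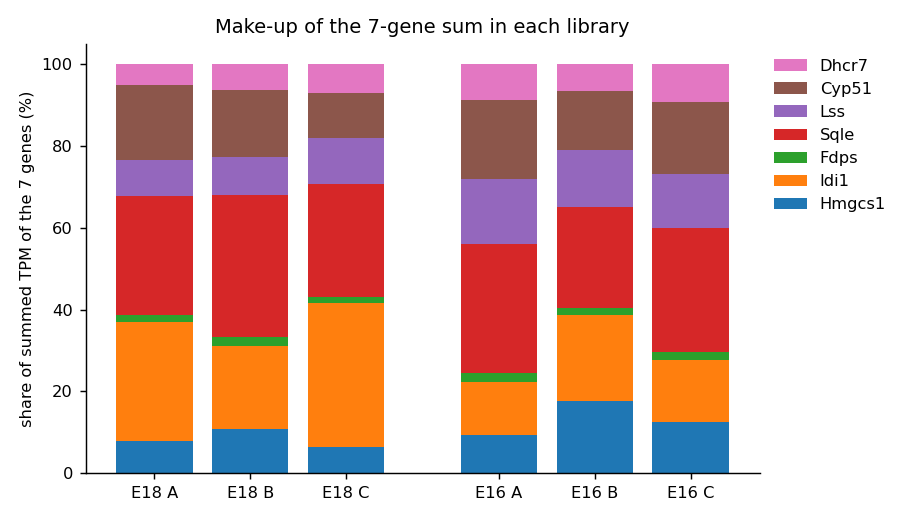
Share of the summed TPM of the 7 genes taken by each (vertical axis, percent) in each library, E18 libraries left and E16 libraries right, stacked from Hmgcs1 at the bottom to Dhcr7 at the top. The Lss band is 8.78% to 11.3% of the E18 bars and 13.2% to 15.8% of the E16 bars.

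Hepatocyte markers were set beside these values. The 12 markers summed to 384, 862 and 995 TPM in E18 libraries A, B and C and 2691, 9016 and 2134 TPM in E16 libraries A, B and C, so E16 replicate B, the library with the most Hmgcs1 and the most Idi1 in its group, also had the highest hepatocyte marker sum. The order of the other libraries did not match throughout. E16 replicate A had a higher marker sum than E16 replicate C but less Hmgcs1 and less Idi1. E18 replicate C had the highest marker sum of its group, with the lowest Hmgcs1 and the highest Idi1. Of the members, Fdps, Sqle, Lss and Cyp51 followed the order of the marker sum in the E16 libraries, and Hmgcs1, Idi1 and Dhcr7 did not. In the E18 libraries only Dhcr7 followed it. Idi2, the paralogue of Idi1, was at 4.32, 1.46 and 1.29 TPM in E18 libraries A, B and C and 2.80, 0.201 and 0.960 TPM in E16 libraries A, B and C (limma adjusted p = 0.618). The part of hepatocyte or erythroid RNA in the levels of the 7 genes was not tested. Rescaling TPM without both marker lists moved no member's log2 fold change by as much as 0.01, a step that removes these markers from the library total only.

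**Figure D4:**
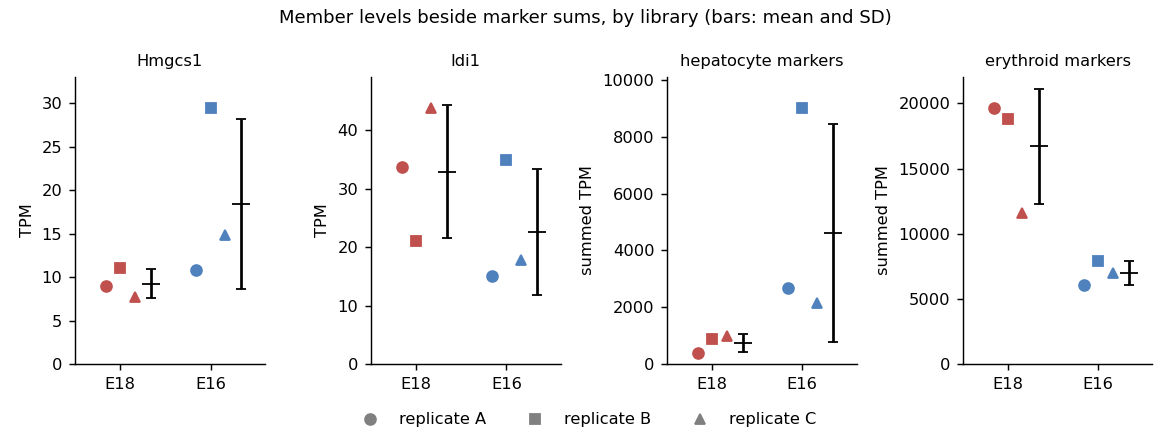
TPM of Hmgcs1 and Idi1 and summed TPM of the hepatocyte and erythroid markers (vertical axes from 0) in E18 (red) and E16 (blue) libraries, with bars for the mean and SD. E16 replicate B (blue square) is the highest E16 library in every panel, at 29.5 TPM for Hmgcs1 and 9016 TPM for the hepatocyte markers.

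Most other enzymes of sterol synthesis also had negative fold changes without passing the test. Of 15 listed and tested, 0 were called in either direction, 1 had an unadjusted p under 0.05, voom called 1, and 11 had a negative fold change. Their median log2 fold change was −0.14. As given above, 20.9% of all tested genes had an unadjusted p under 0.05 (limma), and voom called 8.24%. Lbr, a nuclear membrane protein with sterol reductase activity, was among the 4 with a positive fold change, at 0.32 ± 0.17 on the log2 scale (SE; limma adjusted p = 0.356). The kinase Pmvk and the decarboxylase Mvd, which act on mevalonate phosphates between Hmgcs1 and Idi1, had log2 fold changes of −0.22 ± 0.21 and −0.29 ± 0.30 (SE; limma adjusted p = 0.624 and 0.668).

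Among 11 genes of sterol sensing and SREBP processing, 0 were called, 2 had an unadjusted p under 0.05, voom called 1 (Srebf1), and the median log2 fold change was −0.08. Srebf1, which encodes SREBP-1, the relative of SREBP-2 that favours fatty acid genes, was at 102.3, 97.6 and 99.8 TPM in E18 libraries A, B and C and 151.9, 133.1 and 144.7 TPM in E16 libraries A, B and C. The groups did not overlap (log2 fold change −0.51 ± 0.11 SE), but the limma adjusted p of 0.0551 missed the threshold. The escort protein gene Scap had −0.40 ± 0.16 (SE; limma adjusted p = 0.216). Of 10 fatty acid synthesis targets of SREBP-1, 1 was called lower at E18 and 0 higher, 9 had a negative fold change, 7 had an unadjusted p under 0.05 and the median log2 fold change was −0.52. Voom called 5 of these 10, with Elovl6, Fads2, Scd1 and Scd2 lower at E18 and Me1 higher. The shares over all tested genes were 3.47% called and 20.9% at an unadjusted p under 0.05 (limma), and 8.24% called by voom. Me1, malic enzyme, which supplies reducing power for lipid synthesis, is named after its values were seen and had a log2 fold change of 1.19 ± 0.32 on log2(TPM + 1) (SE; limma adjusted p = 0.0843). The gene called on log2(TPM + 1) was Scd1, a fatty acid desaturase, at 55.5, 56.8 and 63.6 TPM in E18 libraries A, B and C and 94.5, 128.6 and 131.7 TPM in E16 libraries A, B and C (log2 fold change −0.99 ± 0.16 SE; limma adjusted p = 0.0348). Its adjusted p was 0.0454 without E18 replicate C and 0.0757 to 0.115 when any other single library was left out, while the log2 fold change stayed between −1.14 and −0.90. Elovl6, Fads2 and Scd2, which elongate or desaturate fatty acids, had log2 fold changes of −1.24 ± 0.26, −0.54 ± 0.12 and −0.69 ± 0.16 (SE) with limma adjusted p of 0.0505, 0.0545 and 0.0646, and with voom the adjusted p was 0.013, 0.0254 and 0.0159 in the same order. Over the 18 alternatives it ran from 0.00455 to 0.149 for Elovl6, from 0.00461 to 0.187 for Fads2 and from 0.00479 to 0.222 for Scd2. Whether the cholesterol and fatty acid genes differ in their change was not tested.

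Uptake and transport genes had fold changes of both signs. Of 18 genes of lipoprotein uptake and intracellular cholesterol transport, 0 were called, 6 had an unadjusted p under 0.05, and voom called 3, Lrp1 and Vldlr among them. The E18 values all lay above the E16 values in 3 genes and all below in 3, with a median log2 fold change of −0.04. Among all tested genes, 18.4% lay all above and 8.05% all below, and 20.9% had an unadjusted p under 0.05 (limma). The receptors Lrp1 and Vldlr had log2 fold changes of 1.95 ± 0.40 and 1.49 ± 0.37 (SE; limma adjusted p = 0.0505 and 0.0725), and the sterol-responsive membrane protein gene Tmem97 had −0.63 ± 0.16 (SE; limma adjusted p = 0.073). Of 6 tested among 8 genes of cholesterol efflux and its regulators, the LXR receptors, Abcg1 alone was called. This cholesterol exporter was at 19.2, 18.8 and 23.7 TPM in E18 libraries A, B and C and 5.51, 7.37 and 2.39 TPM in E16 libraries A, B and C (log2 fold change 1.91 ± 0.35 SE; limma adjusted p = 0.0402). With any single library left out the log2 fold change stayed between 1.54 and 2.19, with adjusted p from 0.0668 to 0.121. In 4 of these 6 fits no gene of the table was called, so the lost call in those fits does not show a weaker difference. Without E18 replicate C 664 genes were called, but Abcg1 was not (log2 fold change 1.81; limma adjusted p = 0.0668). Without E16 replicate B 55 were called, and again Abcg1 was not (log2 fold change 2.19; limma adjusted p = 0.0723). Of 4 tested among 10 genes of cholesterol storage and bile acid synthesis 0 were called, 2 had an unadjusted p under 0.05, and voom called 1 (Soat1). The cholesterol esterifying enzymes Soat1 and Soat2 had log2 fold changes of 1.30 ± 0.38 and −0.78 ± 0.18 (SE; limma adjusted p = 0.104 and 0.0578), and neither pair of groups overlapped.

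**Figure D5:**
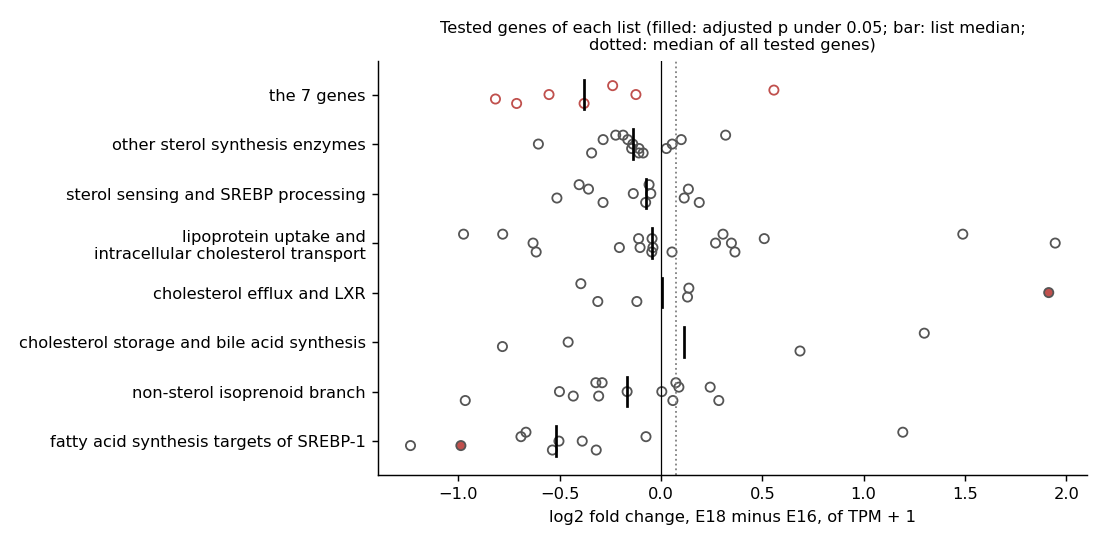
Log2 fold change, E18 minus E16, of TPM + 1 (horizontal axis) for the tested genes of each list (rows), with a bar at the list median, filled points for an adjusted p under 0.05 and a dotted line at the median of all tested genes. The 7 genes have a median of −0.38, the other sterol enzymes of −0.14 and the fatty acid genes of −0.52.

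The mean of the 7 genes, each centred and scaled over the 6 libraries, was −0.60, −0.52 and −0.51 in E18 libraries A, B and C and 0.20, 1.28 and 0.14 in E16 libraries A, B and C. It was lowest in the E18 libraries and highest in E16 replicate B. Among 7505 other genes with a mean of at least 10 TPM, the 5 most like it by Pearson correlation over the 6 libraries were Rfng at 0.996, Sfmbt1 at 0.992, Trmt112 and Crot at 0.991 each and Cps1 at 0.990. With 6 points, the group difference and E16 replicate B shared by all, these correlations only describe the profile. Cps1, the entry enzyme of the urea cycle in hepatocytes, was at 2.94, 3.98 and 4.99 TPM in E18 libraries A, B and C and 10.6, 32.3 and 8.90 TPM in E16 libraries A, B and C (limma adjusted p = 0.0983). None of the 5 was called.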

How the data were processed

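RNA was measured in 6 libraries, 3 per group, grouped by the age and letter in the labels. Per the labels' protocols, total RNA went into a stranded total RNA library kit. The values are TPM made and deposited by the authors for 54532 genes. Per the submitters' processing notes, HTSeq 0.5.4p3, HISAT2 2.1.0, Bowtie and FastQC 0.11.7 were used with the mm10 build, with no role or order given. The sources used here state no strand setting, annotation release or TPM formula, so reads of a gene and its antisense partner may be mixed.

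Genes were named from a table of identifiers, which left 123 unnamed. Positions and merged exon lengths came from GENCODE M21. TPM times exon length gave whole read multiples (within 0.05 read) for 96.8% to 97.1% of values above 0, from which depth and reads per gene were recovered. A chi-square of recovered reads between replicates was 18.9 to 95.6 per degree of freedom, far above sampling noise. Each library was therefore treated as 1 sample, though this does not show that the libraries are independent.

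Genes at TPM of at least 1 in at least 3 libraries, 17824 in all, were log-transformed as log2(TPM + 1) and fitted in R 4.3.3 by limma 3.58.1, with its trend option on, no covariates and Benjamini-Hochberg adjustment over all of them. Genes at adjusted p under 0.05 were called. The scale understates changes of low genes. Exact permutation of 3 against 3 cannot go below p = 0.1. The fit was tested on simulated data.

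The members and lists were chosen with earlier results of these data known. The rule for named genes took the 7 members, their near paralogues, up to 4 genes of smallest p from each of 9 related lists, and the 5 genes most alike in profile. Of these genes, 4 are not reported here. Alternatives covered pseudocounts, filters, scalings, no trend, array weights, the letter as a block, voom on recovered reads and leaving out each library. Leaving libraries out of the shares was added after seeing the data. Sequence sharing used 50-base stretches of the annotated transcripts, and promoters came from RefSeq. Figures were drawn with Matplotlib 3.10.9.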

Additional observations from a re-analysis of the deposited data

How the results depend on the processing

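All 7 members kept their direction under all 18 alternatives (17 for Fdps, which a mean of at least 5 TPM removes), and none was called outside the fit with array weights, which called 3. The 618 calls over all genes became 347 at a pseudocount of 5, 0 with no filter on low values, 363 at a mean of at least 5 TPM, 399 with quantile normalization, 4316 with array weights, 1469 with voom, and 0 to 664 with a library left out. Calls among the related genes, 2 at first, numbered 1 at a pseudocount of 0.1, 0 with no filter, 7 with median-of-ratios scaling, 8 when rescaled without Gm26917, mitochondrial and small RNA genes, 1 with no intensity trend, 28 with array weights, 13 with voom, and 0 to 4 with a library left out. Libraries of the same letter were not more alike than others in their deviations from the group mean. Correlations were −0.139 to 0.102 for the same letter and −0.147 to 0.22 for different letters. With 3 libraries in a group, these values cannot tell whether a letter stands for a shared litter or batch. With the letter as a replicate block 0 genes and 0 related genes were called. The share of calls that were higher at E18, 88.8%, was 79.1% in that rescaling, 78.7% with quantile normalization and 64.8% with array weights, and under quantile normalization the median over all tested genes was −0.08 in place of 0.07. Fold changes turned for Pmvk (0.0586) and Mvd (0.26) with array weights and for Abca1, at 0.0736 without E16 replicate B and from there down to −0.67 without E18 replicate B. The cause was not tested in any of these cases. Fdps rested on the fewest reads of the 7, 37 to 80 per library.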

Other observations

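The non-sterol isoprenoid branch, which draws on the same farnesyl diphosphate as the 7 genes, held 13 tested genes, of which 0 were called and 2 had an unadjusted p under 0.05 (limma); voom called 1 of them, Rabggta. Their median log2 fold change was −0.17, with 4 separate and lower and 1 separate and higher at E18. Over all tested genes, 8.05% were separate and lower, 18.4% separate and higher, and 20.9% had an unadjusted p under 0.05 (limma). Rabggta and Rabggtb, the subunits of the enzyme that attaches geranylgeranyl groups to Rab proteins, had log2 fold changes of −0.97 ± 0.24 and −0.50 ± 0.17 (SE; limma adjusted p = 0.0748 and 0.141). Rabggta was at 7.34, 9.06 and 11.9 TPM in E18 libraries A, B and C and 18.0, 23.7 and 16.1 TPM in E16 libraries A, B and C. Of 12 cell cycle genes tested, 0 were called by limma on log2(TPM + 1) or by voom, 5 had an unadjusted p under 0.05, 11 had a positive fold change, and the median log2 fold change was 0.23. Whether they differ in their change from the cholesterol synthesis genes was not tested. Top2a, a topoisomerase of dividing cells, was at 229.6, 221.6 and 222.8 TPM in E18 libraries A, B and C and 163.6, 196.6 and 161.2 TPM in E16 libraries A, B and C (limma adjusted p = 0.154).

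The ratio of Idi1 to Hmgcs1, formed after the values were seen and not tested, was 3.75, 1.91 and 5.68 in E18 libraries A, B and C and 1.38, 1.18 and 1.20 in E16 libraries A, B and C. It averaged 3.78 ± 1.88 at E18 and 1.25 ± 0.112 at E16 (SD, n = 3 each). The E16 libraries lay close together, E16 replicate B included, although that library had the highest E16 level of both genes. Idi1 and Hmgcs1 had the highest and the lowest log2 fold change of the 7, 0.56 and −0.82, so a higher mean ratio at E18 follows from the choice. The level of Idi1 is also uncertain, as 17.7% of its 50-base stretches occur in genes elsewhere.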
